A study of Mus musculus with 9 samples.

Results

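MiR-221 and miR-222 are a pair of microRNAs (miRNAs) that lie next to each other on chromosome X and are cut from 2 hairpins. Each hairpin gives a 3p and a 5p arm, and these 4 mature miRNAs were taken by name from the 1251 miRNAs in the deposited table. Of the 4 members, 3 had a value above the lowest of the table in at least 3 of the 9 libraries and entered the tests with 343 miRNAs in all. MiR-222-5p did not. Small RNA was sequenced from 3 fat depots of male C57BL/6J mice: interscapular brown fat (BAT), inguinal subcutaneous fat (SAT) and epididymal visceral fat (VAT). The mice were 5 to 6 weeks old when acclimation began. All then received a high fat diet (HFD) for 11 weeks, with 45% of the energy from fat, 20% from protein and 35% from carbohydrate. They were fasted for 4 hours before the fat was taken. There were 3 libraries per depot, and mice on a low fat diet were not analysed here. The libraries are named by depot and label number (BAT 12, 15 and 20, SAT 14, 19 and 20, VAT 14, 17 and 20), and the sources do not say whether a shared number is a shared mouse.

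MiRNAs are short RNAs that are loaded into Argonaute proteins and lower the translation or the stability of mRNAs that pair with them, mostly through the seed at bases 2 to 8. One arm of a hairpin, the guide, is usually retained, and the other, the passenger, is mostly degraded. MiR-221 and miR-222 are well known for repressing the cell cycle inhibitor p27 (Cdkn1b) and the receptor Kit, for roles in endothelial and vascular smooth muscle cells, and for falling when preadipocytes become adipocytes. The study took up miR-222-3p as a miRNA linked to endoplasmic reticulum stress and also measured miR-221-3p. Its quantitative PCR results for both guides in VAT and BAT are not reported here, and the levels below come from sequencing alone.

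The sequences are shown to make plain which part the 2 guides share. RefSeq (GRCm38.p6) holds a mature entry for 3 of the 4 members, and the seed is in capitals.
miR-221-3p: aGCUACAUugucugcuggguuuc
miR-222-3p: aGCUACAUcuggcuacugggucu
miR-221-5p: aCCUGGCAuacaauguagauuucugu
miR-1928: aGCUACAUugccagcuc
MiR-221-3p (chrX:19146307-19146329, minus strand) and miR-222-3p (chrX:19146901-19146923, minus strand) are both 23 bases long. Their first 8 bases are identical, and over the whole length 11 of 23 positions carry the same letter and 12 differ. The authors shared reads with several mapping places in proportion, and reads of full length tell the 2 guides apart by these 12 positions. Among the 1679 mature mouse miRNAs of the reference, only miR-1928 has the same seed, and it was at the lowest value in all 9 libraries. MiR-221-5p (chrX:19146344-19146369, minus strand) has a seed that no other mature entry shares.

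The hairpins show where the arms sit, with the mature arms of the reference in capitals.
Mir221: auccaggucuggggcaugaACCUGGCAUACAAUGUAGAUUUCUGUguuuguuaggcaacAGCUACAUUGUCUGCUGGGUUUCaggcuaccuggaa
Mir222: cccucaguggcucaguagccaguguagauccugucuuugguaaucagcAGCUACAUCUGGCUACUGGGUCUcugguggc
Mir221 covers chrX:19146294-19146388 and Mir222 chrX:19146893-19146971 of GRCm38, both on the minus strand, with 504 bases between them. Neither lies in an exon or intron of another gene in GENCODE M21 or in RefSeq. The nearest annotated gene is the long non-coding RNA Gm14636 on the same strand, which in GENCODE ends 10009 bases from Mir222 and in RefSeq 9499 bases from it. The 2 hairpins are generally held to be cut from 1 longer transcript.

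The deposited levels are log2 values, with 3.32 (10 before log2) as the lowest value. The table gives no read counts, so that the depth is unknown and the spread between the 3 libraries is the measure of precision. The libraries share values at the same rank, and at 80 of the 100 highest ranks they differed by less than 0.05. Skeletal muscle miRNAs (miR-1a-3p, miR-133a-3p, miR-133b-3p and miR-206-3p) differed widely between libraries of the same depot. Their summed level was 18.68 in BAT 20, 17.21 in BAT 15 and 17.21 in VAT 20, 12.60 in VAT 17 and 9.90 to 10.81 in the other libraries. The brown fat miRNAs miR-193b-3p, miR-365-3p, miR-455-3p and miR-378a-3p had a summed level of 17.35 to 18.84 in BAT, 15.17 to 15.24 in SAT and 15.67 to 16.27 in VAT. This sum was thus highest in the libraries labelled BAT. MiR-365-3p alone was 11.05 in BAT 20, within its range of 10.53 to 11.34 in the SAT and VAT libraries. In whole tissue, fewer cells of a type and less RNA per cell cannot be told apart.

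MiR-221-3p, the guide of Mir221, was lowest in BAT, higher in SAT and highest in VAT. Its log2 level was 9.21, 9.85 and 9.16 in BAT 12, 15 and 20, 11.34, 11.10 and 11.15 in SAT 14, 19 and 20, and 12.45, 12.34 and 12.34 in VAT 14, 17 and 20. No 2 depots overlapped, and the mean was 9.41 ± 0.38 for BAT, 11.19 ± 0.13 for SAT and 12.38 ± 0.07 for VAT (SD, n = 3 each). Counted from the highest of the 1251 miRNAs, it stood at place 94 to 111 in BAT, 65 to 70 in SAT and 46 to 48 in VAT. VAT 17 and VAT 20 hold the same rank and the same value, so that the SD in VAT rests on 2 distinct values.

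MiR-221-3p was 7.84-fold higher in VAT than in BAT, a log2 fold change of 2.97 (standard error, SE, 0.26, 95% interval 2.33 to 3.61, limma adjusted p = 0.000287). It was 3.45-fold higher in SAT than in BAT, a log2 fold change of 1.79 (SE 0.22, 95% interval 1.20 to 2.37, limma adjusted p = 0.00398). Both differences from BAT kept their call in each of 18 alternatives, 1 of which leaves BAT with a single library. The step from SAT to VAT was smaller, 2.27-fold, a log2 fold change of 1.18 (SE 0.10, 95% interval 0.92 to 1.45, limma adjusted p = 0.0144). Without SAT 19 its adjusted p was 0.0614, relative to miR-191-5p it was 0.0758, and with the order of the libraries as a block 0.104. Leaving out BAT 15, BAT 20 and VAT 20, the libraries richest in muscle miRNAs, gave log2 fold changes of 3.19 in VAT/BAT and 1.99 in SAT/BAT. In VAT/SAT this leaves out VAT 20 alone and gave 1.20. BAT is then BAT 12 alone, which is assumed to vary like the SAT and VAT libraries, so that these BAT values are a description.

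MiR-222-3p, the guide of Mir222 and the miRNA that the study followed into ER stress, was high in VAT and did not show the middle step. Its log2 level was 10.38, 11.05 and 10.74 in BAT 12, 15 and 20, 11.11, 10.54 and 10.65 in SAT 14, 19 and 20, and 12.40, 12.40 and 12.07 in VAT 14, 17 and 20. The BAT and SAT libraries were interleaved, and the VAT libraries lay above both. The mean was 10.72 ± 0.33 for BAT, 10.77 ± 0.30 for SAT and 12.29 ± 0.19 for VAT (SD, n = 3 each), at places 71 to 84, 69 to 81 and 47 to 52. VAT 14 and VAT 17 hold the same rank and the same value, so that this SD in VAT also rests on 2 distinct values.

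MiR-222-3p was 2.96-fold higher in VAT than in BAT, a log2 fold change of 1.57 (SE 0.26, 95% interval 0.93 to 2.20, limma adjusted p = 0.00269), and this call also held in each of 18 alternatives, the one with BAT 12 as the only BAT library included. Against SAT it was 2.87-fold higher in VAT, a log2 fold change of 1.52 (SE 0.20, 95% interval 1.01 to 2.03, limma adjusted p = 0.0235). The VAT/SAT call was close to its threshold. Without SAT 19, SAT 20, VAT 14 or VAT 20 the limma adjusted p was 0.0525 to 0.0616. Relative to miR-191-5p it was 0.0576, with the order of the libraries as a block 0.104 and with no filter 0.163. Between SAT and BAT the log2 fold change was 0.04, with a 95% interval from -0.60 to 0.69 (limma adjusted p = 0.932), so that a difference of about that width in either direction was not detectable with 3 libraries per depot. With BAT 12 as the only BAT library, and without VAT 20, the log2 fold changes were 2.01 in VAT/BAT and 0.38 in SAT/BAT.

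**Figure D1:**
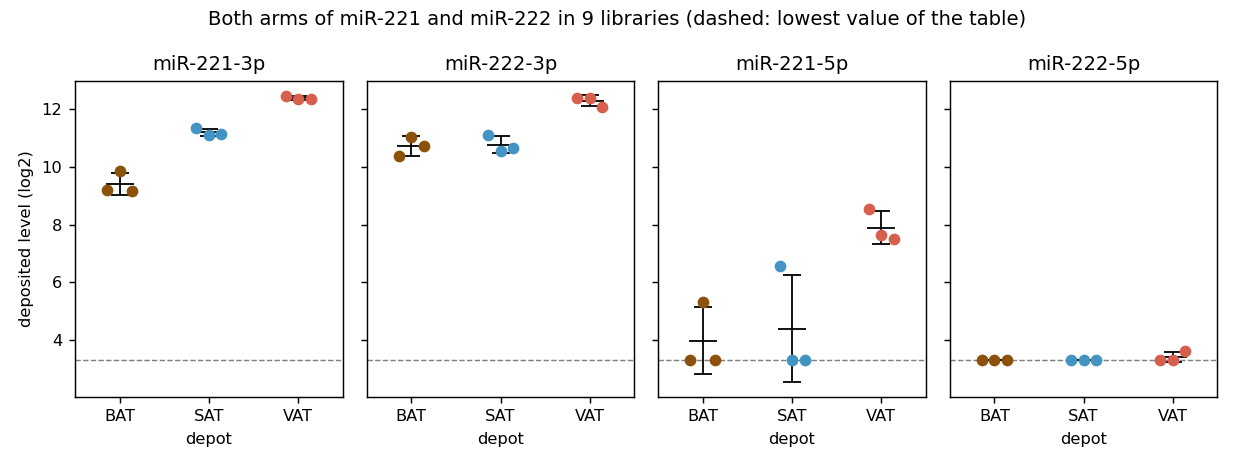
Deposited log2 level of the 4 members (vertical axis) in BAT, SAT and VAT, with 1 point per library, the mean as a horizontal mark, the SD as error bars (n = 3) and the lowest value of 3.32 as a dashed line. MiR-221-3p climbs in 2 steps, miR-222-3p is interleaved in BAT and SAT and higher in VAT, and outside VAT the 5p arms are at the lowest value except for miR-221-5p in BAT 15 and SAT 14.

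The 2 guides therefore had different depot profiles, and the difference between them within a library was examined. In BAT, miR-222-3p was the higher guide in each library, and the log2 level of miR-221-3p minus that of miR-222-3p was -1.18, -1.20 and -1.57 in BAT 12, 15 and 20. In SAT miR-221-3p was the higher one, with log2 differences of 0.23, 0.55 and 0.50 in SAT 14, 19 and 20. In VAT the 2 guides were nearly level, with log2 differences of 0.05, -0.06 and 0.27 in VAT 14, 17 and 20.

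The mean log2 difference between the guides was -1.32 ± 0.22 for BAT, 0.43 ± 0.17 for SAT and 0.09 ± 0.17 for VAT (SD, n = 3 each). It was thus 1.74 larger in SAT than in BAT and 1.40 larger in VAT than in BAT, without overlap in either (exact permutation test, two-sided, p = 0.1 each, the smallest that 3 libraries against 3 allow). VAT and SAT overlapped, with a shift of -0.34 (exact permutation test, two-sided, p = 0.2).

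Since both guides carry the same seed, their summed level was also taken on the unlogged scale, a measure chosen after the values were seen. The sum was 1927, 3041 and 2280 in BAT 12, 15 and 20, 4791, 3680 and 3876 in SAT 14, 19 and 20, and 11002, 10580 and 9477 in VAT 14, 17 and 20. The depots did not overlap in the sum. MiR-221-3p made up 28.7% ± 3.10 of it in BAT, 57.3% ± 2.95 in SAT and 51.5% ± 2.90 in VAT (SD, n = 3 each). From BAT to SAT the mean unlogged level of miR-221-3p went from 696 to 2348 and that of miR-222-3p from 1721 to 1768, so that the higher sum in SAT came with miR-221-3p.

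**Figure D2:**
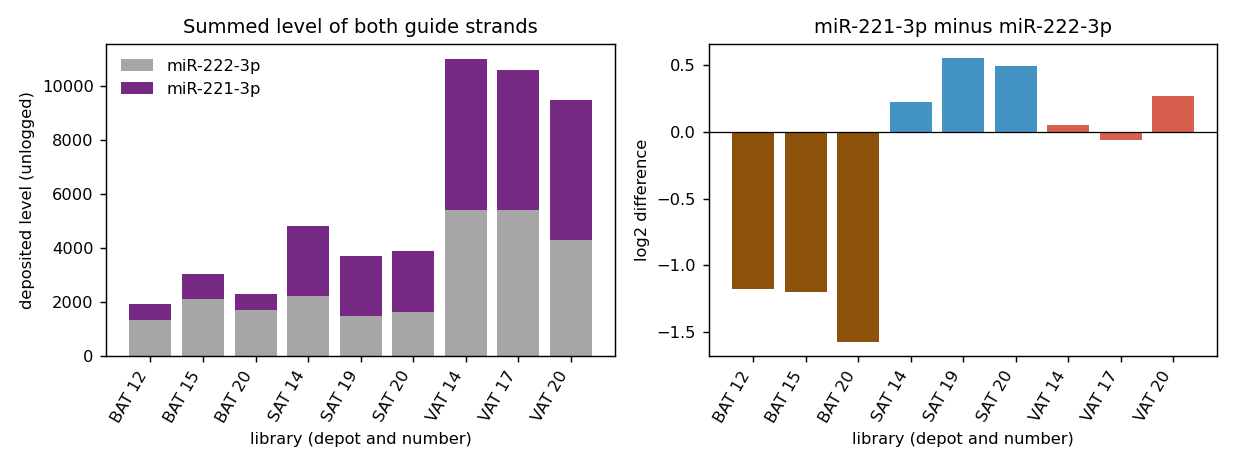
Left, unlogged deposited level of miR-222-3p and miR-221-3p, stacked, in each of the 9 libraries, where the sum runs from 1927 in BAT 12 to 11002 in VAT 14. Right, log2 level of miR-221-3p minus miR-222-3p in each library, which is below -1.1 in the 3 BAT libraries and between -0.06 and 0.55 in the SAT and VAT libraries.

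MiR-221-5p, the passenger arm of Mir221, was far less abundant than its guide and was clearly present in VAT. Its log2 level was 8.55, 7.64 and 7.49 in VAT 14, 17 and 20. In BAT it was 5.32 in BAT 15 and at the lowest value in BAT 12 and BAT 20, and in SAT it was 6.55 in SAT 14 and at the lowest value in SAT 19 and SAT 20. The VAT libraries lay above all others, and the BAT and SAT libraries overlapped. Within their depots, BAT 15 and SAT 14 also had the highest levels of both guides.

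The log2 fold change of miR-221-5p was 3.90 in VAT/BAT (SE 0.63, limma adjusted p = 0.00226), with 2 of 3 BAT libraries at the lowest value. Its size depended on the offset and was 2.26 with a further 40 added and 6.18 with the lowest value subtracted and 1 added. In VAT/SAT the log2 fold change was 3.49 (SE 1.01, limma adjusted p = 0.0851), the largest of the 343 tested miRNAs but not past the threshold. The same offsets gave 2.01 and 5.70 in VAT/SAT. Without SAT 14 it was 4.57 (limma adjusted p = 0.0146). In SAT/BAT the 95% interval of the log2 fold change ran from -2.61 to 3.44 (limma adjusted p = 0.821). With no filter the adjusted p in VAT/BAT was 0.0538, and with 2 VAT libraries against BAT 12 alone it was 0.0933.

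The guide exceeded the passenger in every library. In VAT, where each value was above the lowest, miR-221-3p was 14.98-fold, 26.0-fold and 28.9-fold higher than miR-221-5p in VAT 14, 17 and 20. In BAT 15 it was 23.2-fold and in SAT 14 it was 27.6-fold higher. In the libraries with the passenger at the lowest value the guide was at least 59.1-fold and 57.3-fold higher in BAT 12 and 20, and at least 219-fold and 227-fold higher in SAT 19 and 20. As these are lower bounds, the mean 3p minus 5p difference between depots is not a measured size, and it turned direction between VAT and BAT with a further 40 added to the values.

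MiR-222-5p, the passenger arm of Mir222, was at the lowest value in 8 of 9 libraries and at 3.63 in VAT 20. In VAT 20 its guide exceeded it 348-fold, a ratio that depends on the offset of the deposited values since miR-222-5p was so near the lowest, and in VAT 14 and VAT 17 the factor was at least 540. In BAT and SAT the guide was at least 134-fold to 221-fold higher. In the 3 VAT libraries the 2 guides differed by 0.27 at most on the log2 scale, while the passengers were 8.55, 7.64 and 7.49 for miR-221-5p and 3.32, 3.32 and 3.63 for miR-222-5p.

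The members' calls were then read with their background among all tested miRNAs. Each depot enters 2 of the 3 comparisons, so that these share libraries. MiR-221-5p passed the filter only through the VAT libraries, where it is high, and is left out of these counts. In VAT/BAT both guides had an adjusted p under 0.05 and were higher in VAT, where 39.4% of the 343 miRNAs did so. In SAT/BAT 1 of the 2 guides was called higher in SAT, against 22.4% of all. In VAT/SAT both were called higher in VAT, against 8.45% of all. Without overlap and higher were 2 of 2 guides in VAT/BAT (44.3% of all tested miRNAs), 1 of 2 in SAT/BAT (31.5%) and 2 of 2 in VAT/SAT (22.4%). The median log2 fold change of all tested miRNAs was 0.40 in VAT/BAT, 0.26 in SAT/BAT and 0.10 in VAT/SAT. Counted from the largest increase, miR-221-3p stood at place 32, 69 and 40 of 343 in these comparisons and miR-222-3p at place 105, 187 and 22.

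**Figure D3:**
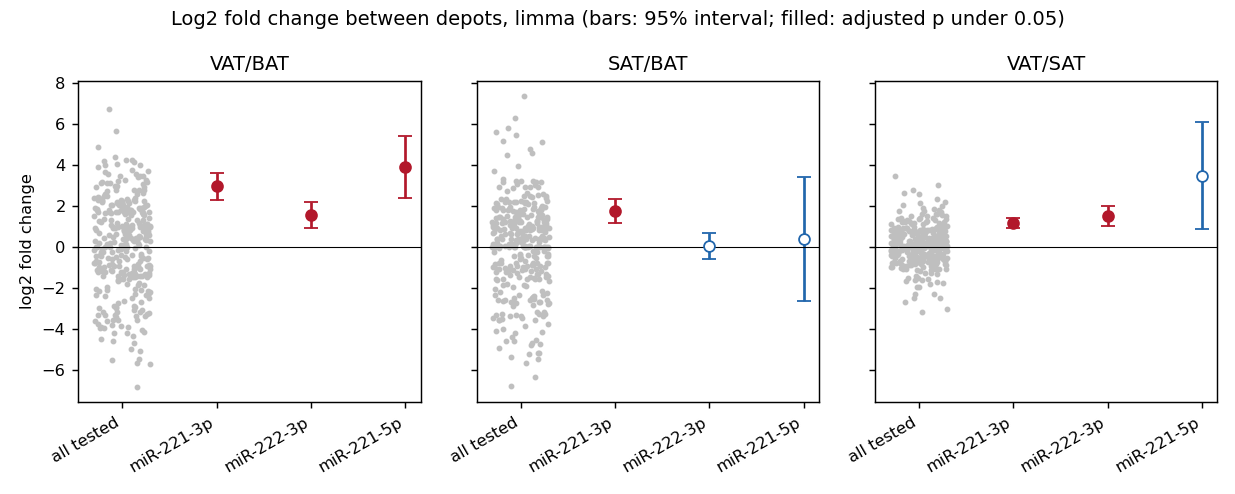
Log2 fold change (vertical axis) of the 343 tested miRNAs in grey and of the 3 tested members with their 95% interval, in each of the 3 comparisons of depots; filled points passed the threshold of 0.05 for the adjusted p. All 3 members are above 0 in VAT/BAT, miR-221-3p alone is clear of 0 in SAT/BAT, and miR-221-5p has the widest intervals.

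The miRNAs whose profile over the 9 libraries was nearest to each guide were found by the root mean square difference of the log2 levels after each miRNA's own mean was subtracted. For miR-221-3p these were miR-27b-5p (0.25), miR-199a-3p and miR-199b-3p (0.33 each, with identical values in the table), miR-26a-5p (0.39) and miR-214-5p (0.39). All 5 had their lowest mean level in BAT and their highest in VAT, which follows largely from their choice by nearness. MiR-199a-3p, known from fibroblasts and other mesenchymal cells, had mean log2 levels of 10.03, 12.23 and 13.18 in BAT, SAT and VAT. MiR-26a-5p, among the most abundant of the table, had 15.20, 17.00 and 17.45. MiR-27b-5p, the passenger of a hairpin whose guide is known to act against adipocyte formation, had 3.77, 5.77 and 6.73. In BAT 12 and BAT 20 miR-27b-5p was at the lowest value, and in BAT 15 it was 4.66. The size of its step from BAT to SAT therefore depends on the offset of the deposited values.

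For miR-222-3p the nearest were miR-15b-3p (0.22), miR-144-5p (0.25), miR-379-3p (0.33), miR-22-3p (0.34) and miR-127-5p (0.34). Of these only miR-22-3p was abundant, with mean log2 levels of 16.78, 17.04 and 18.67 in BAT, SAT and VAT. It ranked first in each VAT library, with the same value of 18.67, the highest of the table. Its SD in VAT is thus 0 and no measure of precision. MiR-144-5p, miR-379-3p and miR-127-5p did not exceed the lowest value in any BAT or SAT library and had VAT means of 4.64, 4.36 and 4.46. MiR-15b-3p, the nearest, exceeded the lowest value outside VAT in SAT 14 alone (4.13) and had a mean of 5.02 in VAT. For all but miR-22-3p, the flat part is thus at or near the floor, and the filter was passed only through the VAT libraries. No miRNA was among the nearest 5 of both guides. MiR-222-3p was at place 64 of 342 in nearness to miR-221-3p, with a root mean square difference of 0.77, and miR-221-5p at place 171. Taking 1 minus Spearman's rho as the measure instead kept 2 of the 5 named for miR-221-3p and 3 of the 5 named for miR-222-3p.

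**Figure D4:**
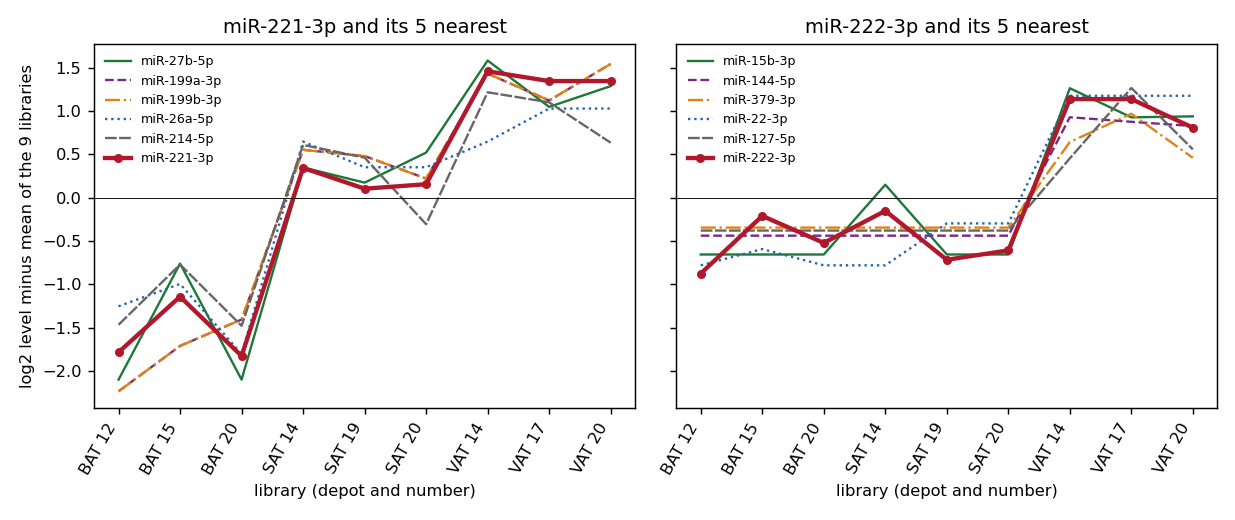
Log2 level minus the mean of the 9 libraries (vertical axis) for miR-221-3p (left, thick line) and miR-222-3p (right, thick line), each with the 5 miRNAs nearest to it. By this choice, the left group has a middle step in SAT, and the right group is flat from BAT to SAT and higher in VAT.

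Other miRNAs known to fall with or act against adipocyte formation were compared from a list of 8, of which 7 were tested. In VAT/BAT 5 of the 7 were higher in VAT and none lower (39.4% of all tested miRNAs were called higher), in SAT/BAT 3 of 7 were higher (22.4% of all), and in VAT/SAT 1 of 7 was (8.45% of all). Their median log2 fold change was 1.35, 0.89 and 0.61 in these comparisons, beside 0.40, 0.26 and 0.10 for all tested miRNAs. Among the 5 called in VAT/BAT, miR-130b-3p was above the lowest value only in SAT 20 and in VAT. It passed the filter only through the VAT libraries, and its call adds no support. MiR-130a-3p, which represses Pparg, followed the BAT to SAT step of miR-221-3p with 2.62 on the log2 scale in SAT/BAT (SE 0.28, limma adjusted p = 0.00259) and had 0.19 in VAT/SAT (limma adjusted p = 0.596). MiR-27b-3p, which also represses Pparg, was the 1 called in VAT/SAT, with a log2 fold change of 0.91 (SE 0.16, limma adjusted p = 0.0276). MiR-145a-5p was not called in any comparison, and miR-31-5p was not either, with SAT and VAT levels from 3.32 to 7.02. MiR-155-5p was at the lowest value in all 9 libraries.

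Of 6 miRNAs linked to obesity and inflammation, 5 were tested, and all 5 were higher in VAT than in BAT, with a median log2 fold change of 4.09. In SAT/BAT 4 were higher and in VAT/SAT 2 were, with medians of 2.90 and 0.85, and the shares and medians over all tested miRNAs are those given for the list before. MiR-146b-5p, a brake on inflammatory signalling, rose over the depots in the same order as miR-221-3p, with log2 fold changes of 2.90 in SAT/BAT (SE 0.51, limma adjusted p = 0.0103) and 1.52 in VAT/SAT (SE 0.22, limma adjusted p = 0.0235). MiR-21a-5p, a growth-promoting miRNA, had log2 fold changes of 3.24 in SAT/BAT (limma adjusted p = 0.00589) and 0.85 in VAT/SAT (limma adjusted p = 0.07).

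Markers of other cells in fat moved with the members in part. Of all tested miRNAs, 39.4% were called higher in VAT/BAT, 22.4% in SAT/BAT and 8.45% in VAT/SAT. The endothelial miR-126-3p and miR-126-5p were both higher in VAT and in SAT than in BAT, and neither was called in VAT/SAT. Their summed log2 level was 11.53 to 12.23 in BAT, 13.28 to 13.61 in SAT and 13.54 to 13.64 in VAT. Of 4 vascular smooth muscle miRNAs (both arms of miR-143 and miR-145a), 3 were higher in VAT and in SAT than in BAT and none was called in VAT/SAT, with summed levels of 14.42 to 14.98, 16.41 to 16.63 and 16.56 to 16.74 in BAT, SAT and VAT. Of 4 stromal miRNAs, 3 were higher in VAT and in SAT than in BAT and miR-199a-3p was higher in VAT than in SAT, with summed levels of 11.23 to 11.58, 12.81 to 13.01 and 13.40 to 13.69.

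Of 4 myeloid miRNAs, all were higher in VAT than in BAT (39.4% of all tested miRNAs), 1 in SAT than in BAT (22.4%) and 2 in VAT than in SAT (8.45%). Their summed log2 level was 5.79 to 7.21 in BAT, 9.71 to 12.13 in SAT and 10.90 to 11.18 in VAT. No BAT library had miR-223-3p, miR-142-3p or miR-511-3p above the lowest value, and no SAT library had miR-511-3p above it. MiR-142-3p, above it outside VAT in SAT 20 alone, and miR-511-3p passed the filter only through the VAT libraries. Their calls as higher in VAT therefore add no support. In the skeletal muscle list 3 of 4 were tested and none was called in any comparison, with summed levels of 10.14 to 18.68 in BAT, 9.90 to 10.81 in SAT and 9.90 to 17.21 in VAT. Of the 4 brown fat miRNAs, 3 were lower in VAT and in SAT than in BAT, and miR-378a-3p was higher in VAT than in SAT. Of all 343 tested miRNAs, 92 were called lower in VAT/BAT and 62 in SAT/BAT. The part of any of these cell types in the levels of miR-221 and miR-222 was not tested.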

How the data were processed

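Small RNA from 9 fat samples was sequenced, 3 each of BAT, SAT and VAT. Per the methods of the study, miRBase was the reference, only mature miRNAs were quantified, and the authors scaled each library by its usable reads and used an offset of 40 counts. The values they deposited are on a log2 scale (the paper speaks of RPKM), with a lowest value of 10 before log2. GEO lists mm10; versions of the mapping tools are not given in the sources used here. Libraries were assigned to depots by the source names, and the study treats those of a depot as biological replicates; whether libraries of different depots come from the same mouse is not stated. P values measure the spread between these libraries.

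Of 1251 miRNAs, 343 exceeded the lowest value in 3 or more libraries and were tested pairwise (6 libraries, no block) with limma 3.58.1 in R 4.3.3, two-sided, and p values were adjusted over all 343 by Benjamini and Hochberg with a threshold of 0.05. Differences within a library were compared by exact permutation (scipy 1.17.1). The fit was checked on simulated normal values without a floor, which does not cover miRNAs near the lowest value such as miR-221-5p. Members and lists were chosen with earlier results of these data known. Named miRNAs are the members, miRNAs with a member's seed, the lists, and the 5 nearest to each guide. Sequences and positions come from RefSeq (GRCm38.p6) and GENCODE M21. Alternatives were other offsets, filters and scalings, 1 fit of all libraries, replicate blocks, no moderation and each library left out; the alternatives without BAT 15, BAT 20 and VAT 20 and with SAT and VAT combined were added after the data were seen.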

Additional observations from a re-analysis of the deposited data

How the results depend on the processing

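MiR-221-3p in VAT/BAT and SAT/BAT and miR-222-3p in VAT/BAT kept direction and call in each of the 18 alternatives, with log2 fold changes of 2.85 to 3.19, 1.61 to 2.01 and 1.40 to 2.01. In VAT/SAT the log2 fold change of miR-221-3p was 1.36 relative to miR-191-5p and 1.18 with the replicate block by library order, both no longer called, and 1.13 to 1.25 over libraries left out (adjusted p 0.0118 to 0.0614 in limma's test). That of miR-222-3p was 1.52 with no filter and with the block by library order, 1.69 relative to miR-191-5p and 1.63 without BAT 15, BAT 20 and VAT 20, none of them called, and 1.41 to 1.69 over libraries left out. Leaving out BAT 15, BAT 20 and VAT 20 leaves 1 BAT library, whose spread is assumed to be that of the other depots. MiR-221-5p in VAT/BAT was not called with no filter (3.90) or without these 3 libraries (4.77), was 2.26 with a further 40 added and 6.18 with the lowest value subtracted and 1 added (2.01 and 5.70 in VAT/SAT), and in VAT/SAT it was 2.95 to 4.57 over libraries left out, called without SAT 14. The SAT/BAT change turned direction for miR-222-3p relative to miR-191-5p (-0.13) and over libraries left out (-0.13 to 0.21), and for miR-221-5p over libraries left out (-0.66 to 1.08). The 3p minus 5p difference turned direction for miR-221 in VAT/BAT with a further 40 added (0.64) and for miR-222 in SAT/BAT over libraries left out (-0.13 to 0.21). SAT and VAT together against BAT (grouping chosen after the values were seen) gave a shift of 1.57 between the guides, and no p is read from it; 3 libraries against 3 cannot go below 0.1. For the other changes the cause was not tested.

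The count of called miRNAs in VAT/SAT, 55, was 4 with no filter and 2 relative to miR-191-5p, both higher. It was 30 in 1 fit of all 9 libraries and 30 with the replicate block by number in that fit. With the block by library order it was 0 (105 at an unadjusted p under 0.05), and without moderation 13. Over libraries left out it was 0 to 49 (0 without SAT 19, 104 at an unadjusted p under 0.05). In VAT/BAT the count of 227 became 128 with no filter and 120 among the 172 miRNAs with the higher mean, where fewer were tested, and in SAT/BAT the count of 139 became 74 with no filter. With depot means removed, the mean correlation of libraries with the same number was 0.05 (4 pairs, -0.14 to 0.27). Between libraries with different numbers it was -0.0075 (23 pairs, -0.48 to 0.36). The correlations were taken across miRNAs, which are not independent. So few pairs cannot tell whether a shared number is a shared mouse, and the numbers were not taken to pair the libraries. The median log2 fold change of all tested miRNAs in VAT/BAT was 0.40 as deposited, 0.13 under quantile normalization and 0.69 with the lowest value subtracted and 1 added. Scaling to miR-191-5p lowered the SAT/BAT median from 0.26 to 0.09 and raised the VAT/SAT median from 0.10 to 0.27. Without read counts, the precision of the low 5p arms is not known.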
